A study of Mus musculus with 4 samples.

Results

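The insulin-like growth factor (IGF) genes described here are the ligands *Igf1* and *Igf2*, the receptors *Igf1r* and *Igf2r*, and the binding proteins *Igfbp2*, *Igfbp3*, *Igfbp4* and *Igfbp5*. They were chosen by symbol from a list of 9 genes, and 8 of the 9 were found among the 12814 genes of the table. The listed gene *Igfbp7* is not analysed here. The RNA came from flow-sorted cells of the inner ears of newborn mice. These were C57BL/6 mice of the genotype *Atoh1/nGFP*, in which a nuclear green fluorescent protein (GFP) driven by *Atoh1* regulatory sequence marks hair cells (HCs), the mechanosensory cells of the ear. HCs were sorted as cells positive for GFP and for CD326 (the epithelial surface protein encoded by *Epcam*), and epithelial non-sensory cells (ENSCs) as cells positive for CD326 that lacked GFP. The cochlea, which serves hearing, and the vestibular system, which serves balance, each gave both populations, so that the 4 groups share the transgene and the strain and received no other treatment. The inner ears of several mice were pooled for a sample. The design text speaks of triplicates, but each of the 4 groups had 1 library in the table, so a difference between groups has no replicate error and was not tested, and p-values are absent.

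IGF1 and IGF2 are small secreted proteins related to insulin that promote growth and survival through the tyrosine kinase receptor IGF1R. IGF2R has no kinase and carries IGF2 to the lysosome, and the binding proteins hold the ligands outside the cell, lengthen their life and control their access to the receptor until proteases release them. In the ear, loss of IGF1 leads to sensorineural deafness in people and mice. *Igf2* and *Igf2r* are imprinted in the mouse, *Igf2* being expressed from the paternal and *Igf2r* from the maternal copy.

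*Igf1*, *Igf2* and *Igfbp4* are the members whose signal was at least 3-fold lower in the HCs of both organs, and the promoters of these genes are shown for that reason. For *Igfbp4* the cochlear part of that statement rests on a signal close to the floor and ended with a floor of 50 (log2 ratio -1.08) and with pseudocounts of 20 and 100 (-0.73 with 100). Each stretch holds the 250 bases before a transcription start given by RefSeq (GRCm38.p6), and each was found once, without mismatch, in the older mouse assembly NCBIM37 (mm9) to which the data were aligned. Capitals mark matches, on either strand, to the TATA box (TATAAA), the GC box (GGGCGG) and the E-box (CANNTG, the core letters that factors of the basic helix-loop-helix class such as ATOH1 recognize). *Igf1* is at chr10:87323606-87323855 on the plus strand, within the annotated gene. *Igf2* is at chr7:149843402-149843651 on the minus strand, the most 3′ of the 4 RefSeq starts of the gene. *Igfbp4* is at chr11:98902308-98902557 on the plus strand.
Igf1: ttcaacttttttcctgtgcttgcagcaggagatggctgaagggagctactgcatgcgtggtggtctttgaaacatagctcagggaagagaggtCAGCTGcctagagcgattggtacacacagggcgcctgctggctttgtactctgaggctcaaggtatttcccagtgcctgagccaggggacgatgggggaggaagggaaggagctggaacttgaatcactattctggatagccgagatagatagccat
Igf2: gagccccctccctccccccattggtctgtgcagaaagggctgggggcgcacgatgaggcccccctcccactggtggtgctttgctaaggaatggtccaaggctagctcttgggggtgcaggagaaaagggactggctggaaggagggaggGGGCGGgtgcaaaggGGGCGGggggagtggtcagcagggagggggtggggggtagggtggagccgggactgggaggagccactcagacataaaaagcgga
Igfbp4: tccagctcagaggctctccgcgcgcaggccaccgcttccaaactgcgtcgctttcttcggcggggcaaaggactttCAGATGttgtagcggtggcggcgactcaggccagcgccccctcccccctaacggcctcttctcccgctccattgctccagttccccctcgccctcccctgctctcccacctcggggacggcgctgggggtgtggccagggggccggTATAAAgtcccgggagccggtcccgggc
The *Igf1* stretch held 1 E-box, at 157 bases before the start, and was 52.8% G or C. The *Igf2* stretch held 2 GC boxes, at 100 and 85 bases before the start, and no E-box, and was 66% G or C. In the *Igfbp4* stretch a TATA box lay 28 bases and an E-box 174 bases before the start. No motif was present in all of these 3 stretches, but the stretch before the most 5′ RefSeq start of *Igf2*, not shown, held 2 E-boxes, at 213 and 161 bases. Of 32851 RefSeq promoters cut the same way, 12.4% held the TATA box, 32.7% the GC box and 66.2% the E-box, so that an E-box in *Igf1* and *Igfbp4* is what most promoters show. These are matches of letters only.

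The signal is the quantile-normalized read count per gene that the authors deposited, with a floor of 20. Each library summed to 7830343 and had a median of 120 as a result of that normalization, so sequencing depth is unknown and an overall shift between libraries cannot be seen. From the floor upwards, 3 of the libraries held a range of values whose order carried no information, ending at 24.25 in cochlear HCs, 22.75 in cochlear ENSCs and 30.5 in vestibular HCs, while in vestibular ENSCs it held only the floor of 20. Only 2 of the 32 member signals were in that range, *Igf2* in vestibular HCs and *Igfbp4* in cochlear HCs, and ratios against them are given as bounds. The sort was checked by marker genes. The summed signal of 8 HC markers (*Pou4f3*, *Gfi1*, *Atoh1*, *Myo7a*, *Myo6*, *Otof*, *Barhl1*, *Lhx3*) was 36927.5 in cochlear HCs and 32001.25 in vestibular HCs against 1836.25 and 1427.25 in the ENSCs of those organs. *Myo6* alone made up most of each sum, with 29920.25 and 21968.25 in the HCs and 1603.75 and 1287 in the ENSCs. Each of the 8 was at least 3-fold higher in HCs than in ENSCs of both organs. *Epcam* was present in every library, at 1016.75, 3376.25, 1139.25 and 7511. *Atoh1* sequence drove the sorted GFP and *Epcam* encodes the sorted CD326, so neither gene is an independent check. Signals are given throughout in the order cochlear HCs, cochlear ENSCs, vestibular HCs, vestibular ENSCs. In sorted cells measured in bulk, fewer cells of a type and less RNA per cell cannot be told apart.

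**Figure D1:**
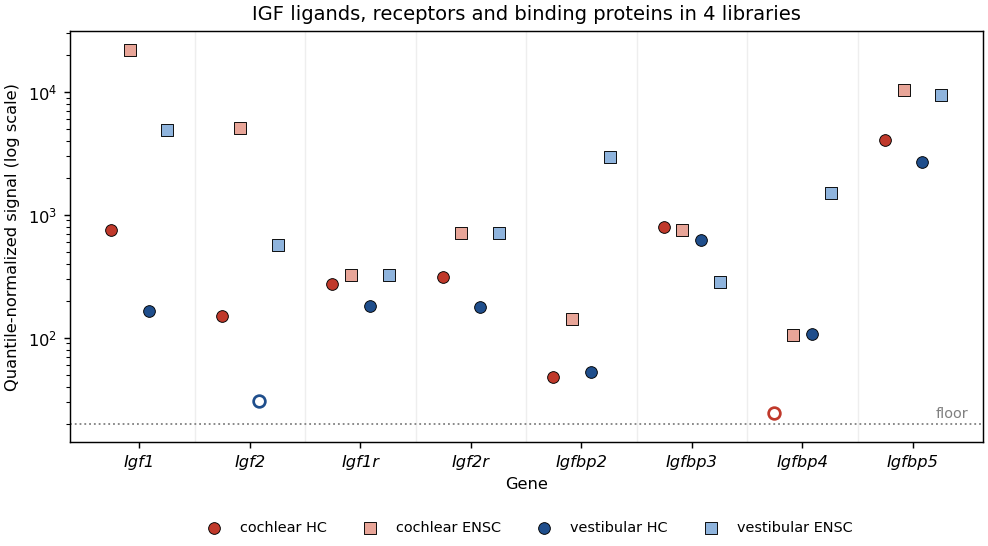
Quantile-normalized signal (log axis) of the 8 genes in the 4 libraries, circles for HCs and squares for ENSCs, red for the cochlea and blue for the vestibular system; open circles mark the 2 signals in a range without order and the dotted line the floor of 20. The ligands are lowest in vestibular HCs and highest in cochlear ENSCs, *Igf1r* spans only 182.5 to 322.75, and *Igfbp2* and *Igfbp4* stand out in vestibular ENSCs.

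The ligands were the members most unequal between HCs and ENSCs in the cochlea. *Igf1* (ENSMUSG00000020053, chr10:87321010-87399792, plus strand) gave signals of 747.75, 21968.25, 165.5 and 4917. The order was cochlear ENSCs, vestibular ENSCs, cochlear HCs, vestibular HCs, and neither HC library came near an ENSC library. The signal in HCs was 29.4-fold lower than in ENSCs in the cochlea (log2 ratio of HC to ENSC, -4.88) and 29.7-fold lower in the vestibular system (-4.89). Those log2 ratios differed between organs by only -0.02, although the levels were unequal, since cochlear HCs had 4.52-fold more *Igf1* signal than vestibular HCs, and cochlear ENSCs 4.47-fold more than vestibular ENSCs. A correction of all ratios for exonic length and GC content moved the vestibular log2 ratio of HC to ENSC to -5.65 and the log2 ratio between the ENSCs of the 2 organs from 2.16 to 1.52, which is under 3-fold. A pseudocount of 100 gave -4.24 for the vestibular ratio. The organ difference of -0.02 became -0.56 with the correction and 0.46 with that pseudocount.

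*Igf2*, the fetal growth factor (ENSMUSG00000048583, chr7:149836673-149852721, minus strand), gave 149, 5119, 30.5 and 567. The libraries stood in the same order as for *Igf1*. The signal in cochlear HCs was 34.4-fold lower than in cochlear ENSCs (log2 ratio -5.10), and that in vestibular HCs at least 18.6-fold lower than in vestibular ENSCs (-4.22, from a signal at the top of the range without order). Between organs, cochlear ENSCs exceeded vestibular ENSCs 9.03-fold, while the HC signals of the 2 organs were at least 4.89-fold apart in the same direction. That last ratio was under 3-fold with a floor of 50 (log2 ratio 1.58) and with a pseudocount of 100 (0.93). With a pseudocount of 100 the cochlear ratio of HC to ENSC was -4.39 and the vestibular one -2.35, and with the length and GC correction the vestibular one was -3.28 and the ratio between ENSCs 3.85. The gene lies 72.6 kb from *H19*, the imprinted noncoding RNA with which it shares enhancers, and *H19* gave 115.5, 6676.75, 30.5 and 1504. *H19* thus took the same order of libraries, with a signal in HCs that was 57.8-fold lower in the cochlea and at least 49.3-fold lower in the vestibular system. The antisense gene *Igf2as* shares 98 exonic bases with *Igf2*, which is 1.78% of the *Igf2* exons, and its own signals of 20, 34.75, 20 and 20 were at or near the floor. The amplification kit does not mark strand, so reads in that overlap cannot be assigned.

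The summed signal of mesenchymal markers took the library order of the ligands, but its members did not all do so. Of 10 listed markers 8 had a signal (*Col1a1*, *Col1a2*, *Col3a1*, *Dcn*, *Lum*, *Postn*, *Tbx18* and *Ogn*, with *Pou3f4* and *Twist1* without one), and their sum was 1090, 20495.75, 309.75 and 4701.75. Of the 8, 5 were highest in cochlear ENSCs (*Lum*, *Ogn*, *Dcn*, *Col1a2* and *Postn*) and 3 in vestibular ENSCs, namely *Col1a1* (23.75, 58.25, 29 and 512.25), *Col3a1* (23.75, 46.25, 63.25 and 547) and *Tbx18* (20, 20, 20.5 and 54.75). *Lum*, a proteoglycan of connective tissue, made up most of the cochlear ENSC sum with 728.25, 12731.25, 30.5 and 413.75, so that its cochlear HC signal was above that of vestibular ENSCs. *Col1a2*, a collagen chain, gave 46.25, 1618, 54 and 443.25. In vestibular HCs 5 of the 8 mesenchymal signals were in the range without order, against 4 in cochlear HCs, 1 in cochlear ENSCs and 0 in vestibular ENSCs. The sort on CD326 selects epithelial cells, and the part of mesenchymal RNA in the ligand signals was not tested. Markers of cochlear supporting cells, 5 of 5 measured, summed to 9399.75, 86402.75, 7834.25 and 8556.5. *Epyc* alone gave 62028.5 of the cochlear ENSC sum, and the members differed: *Sox2* was highest in vestibular HCs (2659.5, 2103.75, 3960.75 and 465.75), and *Tecta* gave 4249.25, 11861.25, 535 and 4648.75.

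The receptors differed far less than the ligands. *Igf1r* (ENSMUSG00000005533, chr7:75097713-75371484, plus strand), the receptor that transmits the signal of both ligands, gave 274.75, 322.75, 182.5 and 322.75. The ENSC signals were equal in the 2 organs, the whole range was 1.77-fold, and the signal in HCs was 1.17-fold lower in the cochlea (log2 ratio -0.23) and 1.77-fold lower in the vestibular system (-0.82). The length and GC correction moved the vestibular ratio to -0.09 and the ratio between ENSCs from 0.00 to 0.51. *Igf1r* was thus the member with the narrowest range, within the 3-fold threshold in each of the 4 comparisons. The study used a threshold of 3-fold for genes elevated in HCs over epithelial non-HCs. With no replicate, its order of levels cannot be set against any spread.

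*Igf2r* (ENSMUSG00000023830, chr17:12875272-12962530, minus strand), the clearance receptor, gave 311, 716.5, 179.5 and 710.25. Both ENSC signals were again nearly equal, and both HC signals were below them. The signal in HCs was 2.3-fold lower in the cochlea (log2 ratio -1.20) and 3.96-fold lower in the vestibular system (-1.98), so that only the vestibular ratio passed 3-fold, and it no longer did so with a pseudocount of 100 (-1.54). The antisense transcript *Airn*, which takes part in silencing the paternal *Igf2r*, shares no exonic bases with it and gave 43.75, 102.75, 33.75 and 87. The related insulin receptor *Insr* gave 1142.75, 1859.75, 1330.75 and 1698.5, with log2 ratios of -0.70 and -0.35. The other 7 genes listed as insulin and IGF relatives (*Ins1*, *Ins2*, *Insrr*, *Igfals*, *Igfbp1*, *Igfbp6* and *Igfbpl1*) are not analysed here.

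The 4 binding proteins followed 3 different patterns. *Igfbp2* (ENSMUSG00000039323, chr1:72871077-72899048, plus strand), a carrier that prefers IGF2, gave 47.5, 140.75, 52.25 and 2957.25. Vestibular ENSCs stood apart from the other libraries, 21-fold above cochlear ENSCs and 56.6-fold above vestibular HCs (log2 ratio of HC to ENSC, -5.82). In the cochlea the signal was 2.96-fold lower in HCs (-1.57), just short of the threshold, and the HC signals of the 2 organs differed by 1.1-fold. The length and GC correction reduced the vestibular ratio to -4.57 and the ratio between ENSCs to -3.55, and a pseudocount of 100 gave -4.33 and -3.67, with -0.71 for the cochlear ratio. The organ difference of the log2 ratio, vestibular minus cochlear, was -4.26, the largest in size of the 8 members.

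*Igfbp4* (ENSMUSG00000017493, chr11:98902558-98913969, plus strand), which holds IGFs back from the receptor until it is cleaved, gave 24.25, 105.5, 107.25 and 1505. Vestibular ENSCs were again highest, here with cochlear ENSCs and vestibular HCs nearly level and cochlear HCs in the range without order. Its signal in HCs was 14-fold lower in the vestibular system (log2 ratio -3.81) and at least 4.35-fold lower in the cochlea (-2.12). Vestibular signals exceeded cochlear ones by 14.3-fold in ENSCs and at least 4.42-fold in HCs. The vestibular ratio of HC to ENSC was -2.59 with the length and GC correction and -2.95 with a pseudocount of 100, and the ratio between ENSCs was -3.02 and -2.97. The ratio between HCs was under 3-fold with a floor of 50 (-1.10) and with both pseudocounts (-0.74 with 100).

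The vestibular ENSC library, in which *Igfbp2* and *Igfbp4* were highest, also had the highest sum of the 5 epithelial markers (7431, 9905, 1758 and 21993.75), although *Cdh1* among them was highest in cochlear HCs (6003, 4852.75, 178.5 and 3308.25). The same library was highest for the endothelial list, of which only *Kdr* of 5 markers was measured (24.25, 29, 29.75 and 1461.75). *Pecam1*, *Cdh5*, *Cldn5* and *Tek* are not analysed here. The sort on CD326 selects epithelial cells, and the part of epithelial or endothelial cells in the binding protein signals was not tested. Among the other marker lists, 5 of 5 glial genes summed to 2698.25, 1486.25, 507 and 1664.25, 3 of 6 neuronal genes to 8058, 5094, 7548.5 and 379, and *Cd68*, the 1 measured gene of 5 for blood and macrophages, gave 20, 20, 20 and 24.75. None of the melanocyte markers, listed under 5 symbols, was measured.

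*Igfbp5* (ENSMUSG00000026185, chr1:72904506-72921458, minus strand), a binding protein that also attaches to extracellular matrix, gave 4047.75, 10450.75, 2693.5 and 9522.5. Both HC libraries were below both ENSC libraries. The signal in HCs was lower than in ENSCs, by 2.58-fold in the cochlea (log2 ratio -1.37) and 3.54-fold in the vestibular system (-1.82), while the organs differed by only 1.5-fold in HCs and 1.1-fold in ENSCs. The vestibular ratio fell short of 3-fold with the length and GC correction (-1.55). *Igfbp2* and *Igfbp5* are neighbours on chromosome 1 on opposite strands with 5.46 kb between them. Their signals did not run in parallel, since between the ENSCs of the 2 organs *Igfbp5* was nearly level and *Igfbp2* was 21-fold apart.

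*Igfbp3* (ENSMUSG00000020427, chr11:7106089-7113926, minus strand), the main IGF carrier of blood, gave 800.25, 753.25, 623.25 and 282.5. It was the only member with a higher signal in HCs than in ENSCs of both organs, by 1.06-fold in the cochlea (log2 ratio 0.09) and 2.21-fold in the vestibular system (1.14). Neither ratio passed 3-fold. Its lowest signal was in vestibular ENSCs, the library in which *Igfbp2* and *Igfbp4* were highest.

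Counted over the 8 members, 0 were at least 3-fold higher and 3 at least 3-fold lower in cochlear HCs than in cochlear ENSCs (*Igf1*, *Igf2* and *Igfbp4*), where 8.39% of all genes were higher and 9.20% lower. Among vestibular cells 0 were higher and 6 lower in HCs (those 3 with *Igf2r*, *Igfbp2* and *Igfbp5*), where 13.8% of all genes were higher and 14.3% lower. The median log2 ratio of the members was -1.47 for cochlear and -2.90 for vestibular cells, against 0.00 and -0.0045 over all genes. With 8 genes picked by name and 1 library a group, these counts describe the members and carry no test.

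**Figure D2:**
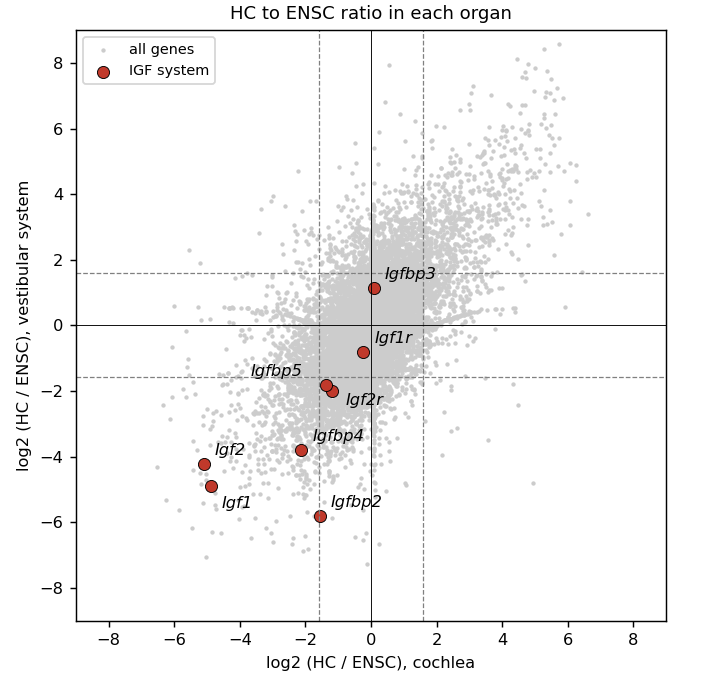
Log2 ratio of HC to ENSC signal in the cochlea (horizontal) against the vestibular system (vertical) for all 12814 genes (grey points) and the 8 members (red points), with dashed lines at 3-fold. *Igf1* and *Igf2* lie at the lower left, *Igfbp2* near the cochlear threshold but at -5.82 in the vestibular system, and *Igfbp3* alone lies above 0 on both axes.

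Between organs, both ligands had the higher signal in the cochlea, and *Igfbp4* in the vestibular system. Comparing cochlear with vestibular HCs, 2 were at least 3-fold higher (*Igf1* and *Igf2*) and 1 lower (*Igfbp4*), where 4.21% of all genes were higher and 5.09% lower. Between cochlear and vestibular ENSCs, 2 were higher (*Igf1* and *Igf2*) and 2 lower (*Igfbp2* and *Igfbp4*), where 7.80% of all genes were higher and 7.94% lower. The log2 ratio of cochlear to vestibular signal was 2.18 for *Igf1* and at least 2.29 for *Igf2* in HCs, and 2.16 and 3.17 in ENSCs. For *Igfbp4* it was -2.14 or lower in HCs and -3.83 in ENSCs, and for *Igfbp2* it was -0.14 in HCs and -4.39 in ENSCs. The remaining members, *Igf1r*, *Igf2r*, *Igfbp3* and *Igfbp5*, stayed within 3-fold in both populations. These organ comparisons use the same 4 libraries as the comparisons of HCs with ENSCs and are not independent of them.

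**Figure D3:**
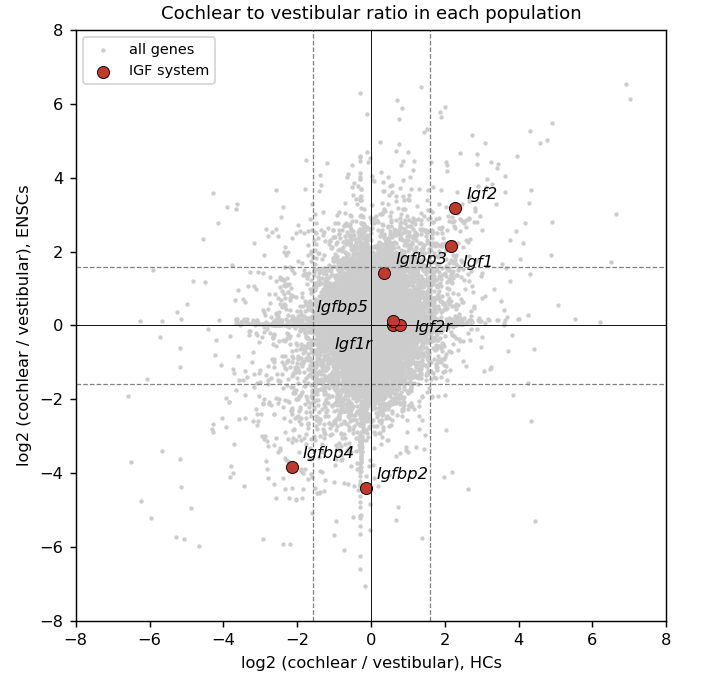
Log2 ratio of cochlear to vestibular signal in HCs (horizontal) against ENSCs (vertical) for all genes (grey points) and the 8 members (red points), with dashed lines at 3-fold. The ligands lie at the upper right, *Igfbp4* at the lower left, and *Igfbp2* at -4.39 in ENSCs but near 0 in HCs.

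Because the deposited signal grows with transcript length, the members were ranked among each other as signal per kb of annotated exon. The length is that of all annotated exons of a gene together, 9.92 kb for *Igf1* and 4.48 kb for *Igf1r*. Which isoforms were expressed was not examined, so ratios between different genes depend on that choice of length. On that scale *Igfbp5* was the highest member in cochlear HCs (674 per kb, rank 364 of 12799 genes) and in vestibular HCs (448 per kb, rank 726). *Igf1* was the highest in cochlear ENSCs (2214 per kb, rank 84), ahead of *Igfbp5* (1740) and *Igf2* (932). In vestibular ENSCs *Igfbp2* (1601) and *Igfbp5* (1585) were level, above *Igfbp4* (637) and *Igf1* (496).

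In ENSCs both ligands had more signal per kb than *Igf1r*, whereas in HCs only *Igf1* in the cochlea did. *Igf2* gave 27.1, 932, at most 5.55 and 103 per kb, and *Igf1r* 61.4, 72.1, 40.8 and 72.1. The ratio of *Igf1* to *Igf1r* per kb was 1.23 in cochlear HCs, 30.7 in cochlear ENSCs, 0.409 in vestibular HCs and 6.87 in vestibular ENSCs. *Igf1* exceeded *Igf2* per kb by 2.78-fold and 2.38-fold in the cochlear HCs and ENSCs, at least 3-fold in vestibular HCs, and 4.8-fold in vestibular ENSCs. *Igf2r* per kb was close to *Igf1r* in ENSCs (ratios of 1.05 and 1.04) and below it in HCs (0.537 and 0.466). *Insr* per kb was above *Igf1r* in each library, by 1.93-fold to 3.38-fold.

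The makeup of the binding proteins set vestibular ENSCs apart. Summed per kb, the 4 genes gave 966 in cochlear HCs, 2102 in cochlear ENSCs, 721 in vestibular HCs and 3914 in vestibular ENSCs. *Igfbp5* was 69.8%, 82.8% and 62.2% of that sum in the first 3 libraries but 40.5% in vestibular ENSCs, where *Igfbp2* reached 40.9% and *Igfbp4* 16.3%. *Igfbp3* was 26.5% and 27.6% of the sum in the HCs of the 2 organs, against 11.5% in cochlear and 2.31% in vestibular ENSCs.

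**Figure D4:**
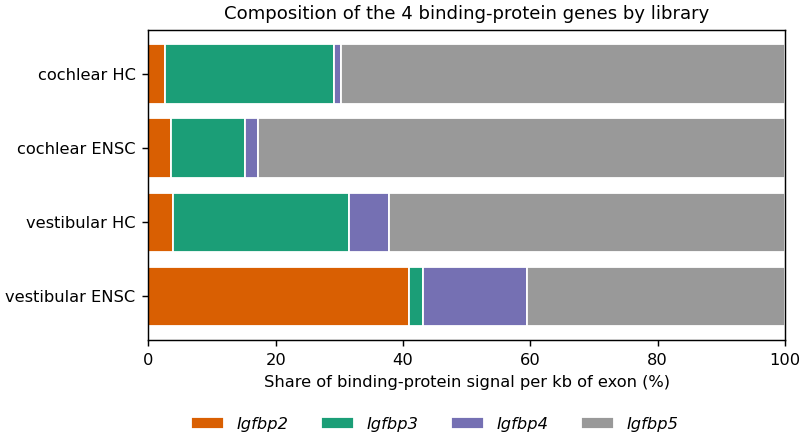
Share (%) of each binding protein gene in the summed binding protein signal per kb of exon, 1 bar per library. *Igfbp5* (grey) fills most of the bar except in vestibular ENSCs, where *Igfbp2* (orange) has 40.9%, and the share of *Igfbp3* (green) is larger in each HC library than in the ENSC library of its organ.

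The genes with the most similar pattern were sought for the 6 members whose highest and lowest signals were at least 3-fold apart, among 6726 protein-coding genes, by the root mean square distance of log2 signals centred on the mean of each gene over the 4 libraries. For *Igf1* the nearest gene was *Igf2*, at a distance of 0.38, followed by *Slit2* (0.61) and *Dpyd* (0.71). For *Igf2* it was *Igf1*, followed by *Scg2* (0.60) and *Stc1* (0.70). *Igfbp2* was nearest to *Esrrb* (0.18), *Aldh1a2* (0.22) and *Krt18* (0.35), and genes near *Igfbp4* included *Tbx3* (0.29) and *Krt8* (0.34). *Igfbp5* and *Igf2r* were near to each other (0.08) and to *Ier5* (0.05 and 0.07), with *Tram1* (0.06) and *Plod2* (0.07) also near *Igfbp5* and *2700081O15Rik* (0.09) near *Igf2r*. With 4 points per gene many genes can come this close. *Igf2* itself, *Slit2*, *Dpyd*, *Scg2*, *Esrrb* and *Aldh1a2* were in the range without order in vestibular HCs, as were *Krt8* and *Igfbp4* itself in cochlear HCs. The distance between *Igf1* and *Igf2*, and those of the other genes to *Igf2*, thus rest in part on such a value.

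Beyond the members, 107 gene symbols of the wider pathway were listed in 10 groups and 87 were measured. In the cochlea 4 were at least 3-fold higher and 20 lower in HCs (median log2 ratio -0.27), and among vestibular cells 2 were higher and 17 lower in HCs (-0.52). As shares of the 87 genes these counts are to be read against the percentages of all genes given above for the same comparisons. Between organs the counts were 4 higher and 3 lower in cochlear than in vestibular HCs (median 0.04), and 10 higher and 8 lower in ENSCs (-0.08).

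Proteases that cut the binding proteins, and the inhibitors of those proteases, form the next group. Of 6 measured proteases and inhibitors, 1 was higher and 2 lower in cochlear HCs (median 0.21), and 0 higher and 1 lower in vestibular HCs (0.35). Of all genes 8.39% were higher and 9.20% lower in cochlear HCs, and 13.8% and 14.3% in vestibular HCs. The counts of this group and of those below are to be read against these shares. With so few genes a group, they were not tested. *Pappa2*, a protease that cleaves IGFBP3 and IGFBP5, gave 27.75, 1071.5, 29.75 and 20, and so had a high signal in cochlear ENSCs only (log2 ratio of HC to ENSC in the cochlea, -5.27). *Stc1*, a stanniocalcin that inhibits this class of protease, gave 104, 1844.25, 35.5 and 211.75 (-4.15 and -2.58). *Stc2*, its relative and also an inhibitor, ran the other way with 248.5, 32.25, 91.5 and 43.5 (2.95 and 1.07).

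Of 6 measured relatives that carry an IGFBP domain, 0 were higher and 3 lower in HCs of each organ (medians -1.73 and -1.34). *Cyr61*, a matricellular protein, gave 771.5, 3943, 621.5 and 4084.25 (-2.35 and -2.72). Its relative *Ctgf* gave 1675, 2913.5, 93 and 424 (-0.80 and -2.19), and *Wisp1* gave 23.75, 397.75, 29 and 122.25, at least 16.4-fold lower in cochlear and at least 4.01-fold lower in vestibular HCs. Among 4 genes for proteins that bind *Igf2* mRNA, 1 was higher and 1 lower in HCs of each organ (medians -0.64 and -0.79). The higher gene was *Lin28b* in both, with 966.25, 197, 92.75 and 20 (2.29 for the cochlea, and at least 4.64-fold for the vestibular system). It encodes an RNA-binding protein that blocks let-7 maturation.

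Directly below the receptor, 10 adaptors and regulators were measured, of which 0 were higher and 3 lower in cochlear HCs (median -0.50) and 0 higher and 2 lower in vestibular HCs (-0.54). *Irs1*, a main docking protein of the receptor, was lower in both with 120.75, 620.75, 139.75 and 516.5 (-2.36 and -1.89). Its relative *Irs2* gave 64.75, 101.25, 54 and 935 (-0.64 and -4.11), a high signal in vestibular ENSCs only, as for *Igfbp2* and *Igfbp4*. *Grb10*, an imprinted adaptor that restrains receptor signalling, was high in cochlear ENSCs with 692.75, 5554.25, 927.25 and 1328.5 (-3.00 and -0.52). *Gab1*, a docking protein, gave 1615.75, 4877.75, 1887 and 4158.25 (-1.59 and -1.14).

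The 2 downstream branches were counted against all genes, of which 10560 of 12814 stayed within 3-fold in the cochlear comparison and 9215 in the vestibular one. In the branches 21 of 24 and 10 of 12 genes did so in the cochlea, and 20 of 24 and 9 of 12 in the vestibular system. Each is a somewhat larger share than among all genes, and with so few genes this was not tested. Of 24 genes of the PI3K, AKT, mTOR and FOXO branch, 0 were higher and 3 lower in cochlear HCs (median 0.11), and 0 higher and 4 lower in vestibular HCs (-0.33). *Foxo1*, a transcription factor that AKT keeps out of the nucleus, gave 191.75, 683.25, 229.75 and 1621 (-1.83 and -2.82). *Foxo4*, a relative of it, gave 41.25, 237.75, 28 and 104 (-2.53, and at least 3.41-fold lower in the vestibular system). *Pik3r1*, a regulatory subunit of the lipid kinase, gave 347, 1816.75, 890.25 and 1811.75 (-2.39 and -1.03), and the kinase *Akt1* gave 89.75, 126.25, 70.5 and 315.75 (-0.49 and -2.16).

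In the RAS and MAPK branch 1 of 12 genes was higher and 1 lower in cochlear HCs (median -0.42), and 1 higher and 2 lower in vestibular HCs (-0.63). The kinase gene *Braf* was the higher one in both organs with 4437.25, 1461.75, 5182 and 1172.75 (1.60 and 2.14). The GTPase gene *Nras* was lower in both with 947.5, 3715.5, 670.5 and 2775.5 (-1.97 and -2.05). *Mapk3*, which encodes the kinase ERK1, gave 66.75, 91.75, 66 and 403 (-0.46 and -2.61).

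Of 7 measured genes of the growth hormone axis, which drives IGF1 production in liver, 0 were higher and 3 lower in cochlear HCs (median -1.11) and 0 higher and 1 lower in vestibular HCs (-0.75). The receptor gene *Ghr* gave 251, 839.5, 466 and 785.25 (-1.74 and -0.75), and the feedback inhibitor *Cish* 23, 49.75, 67 and 210.75 (-1.65 in the vestibular system). Of 11 imprinted genes with effects on growth, all 11 measured, 0 were higher and 4 lower in cochlear HCs (-1.23) and 0 higher and 3 lower in vestibular HCs (-0.89). Beside *H19* these included the noncoding RNA *Meg3* with 64.75, 455.75, 254.75 and 1342.5 (-2.82 and -2.40) and *Mest* with 84, 673.75, 399.5 and 5714.25 (-3.00 and -3.84). Both were highest in vestibular ENSCs, where *H19*, like *Igf2*, was highest in cochlear ENSCs. Of 6 measured genes for sorting by mannose 6-phosphate, the route that IGF2R serves, 1 was higher and 0 lower in cochlear HCs (0.51) and 0 were past 3-fold in vestibular HCs (-0.61).

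**Figure D5:**
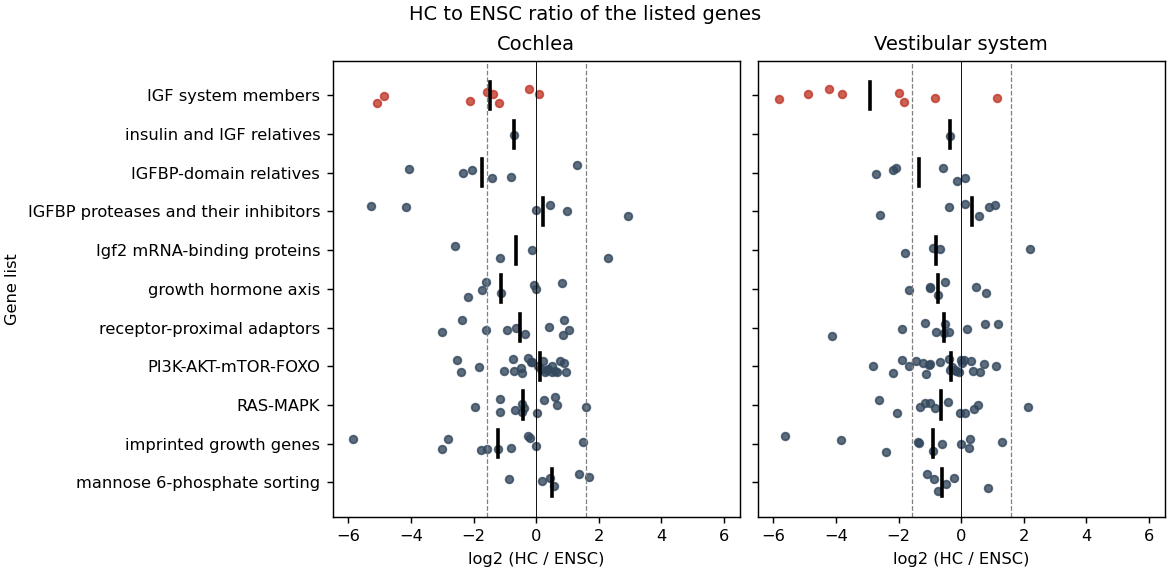
Log2 ratio of HC to ENSC signal for each measured gene of the 8 members (red points) and the 10 pathway groups (blue points) in the cochlea (left) and the vestibular system (right), with black bars at the medians and dashed lines at 3-fold. The members have medians of -1.47 and -2.90, while the medians of the pathway groups lie between -1.73 and 0.51.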

How the data were processed

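The sources name mm9, TopHat and HTSeq, without versions. Per the labels and the study's methods, cells of *Atoh1/nGFP* mice were sorted by flow cytometry and the NuGEN Ovation kit was used for amplification. The authors used the leading 50 nt of the reads for TopHat alignment to mm9, took HTSeq counts for ENSEMBL genes, applied quantile normalization, set a floor of 20 and kept genes covered by at least 20 reads. The deposited values are therefore a normalized signal, not counts, and the strand setting is not given in the sources used here. All are multiples of 0.25, and the sorted values are identical in the 4 columns. Quantile normalization removes depth and any overall shift, so no interval for counting error can be given, and neighbouring low values may be ties broken without information.

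Groups came from the sample labels, and the non-HC columns were assigned to the ENSC samples by organ. Members were matched on the symbol column. From the signal, log2 ratios without a pseudocount were computed for HCs against ENSCs in each organ and for cochlea against vestibular system in each population, and ratios reaching 3 in either direction were counted. The range without order was taken to end where the genes' highest signal elsewhere, by its median, dropped sharply. Ratios against a signal in that range used its upper end. Positions, exonic length and overlaps came from the GENCODE annotation of NCBIM37 (12799 of 12814 identifiers matched), and promoters from RefSeq. All members were described. Pathway genes were named if, in a comparison of HCs with ENSCs, they were among the up to 3 per group and direction with the largest ratio past 3 and if the higher library reached 200. For likeness of pattern, up to 3 protein-coding genes per member were named among those reaching 200 in some library, and 1 gene is not reported here. Measured genes of the insulin and IGF relatives (*Insr*) were named whatever their ratio. *H19* was named by the first rule, while *Igf2as* and *Airn* were added as antisense neighbours. Single marker genes were named from the marker lists after their values were seen. The members and gene lists were chosen with earlier results of these data known, and support nothing on their own.

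Alternatives were a floor of 50, pseudocounts of 20 and 100, only genes reaching 100 in some library, centring on the median, a threshold of 2, a correction for exonic length and GC content (lowess with a fraction of 0.3 and 2 robust iterations), and low values raised to the end of the range without order. The ratio scripts were tested on simulated data. Python 3.11.15, numpy 2.4.6, pandas 2.3.3, statsmodels 0.14.6 and matplotlib 3.10.9 were used.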

Additional observations from a re-analysis of the deposited data

Results flagged for a closer look

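Among the genes named above, *Grb10* and *Irs2*, both receptor-proximal adaptors, were past 3-fold between the organs in ENSCs and had a ratio of the other sign in HCs. The log2 ratio of cochlear to vestibular signal for *Grb10* was -0.42 in HCs and 2.06 in ENSCs. For *Irs2* it was 0.26 in HCs and -3.21 in ENSCs. Other genes named above met the same description, among them *Mapk3* (0.02 in HCs and -2.14 in ENSCs), *Sox2* (-0.57 and 2.18) and *Col1a2* (-0.22 and 1.87). *Pappa2* did so too (-0.10 in HCs and at least 53.6-fold in ENSCs), but its vestibular HC signal was in the range without order. The HC ratios are small, and opposite signs alone are common: they were found for 6 of the 10 measured adaptors, 39 of the 87 pathway genes and 38.7% of all genes. With 1 library per population these differences were not tested. No group had enough libraries for an outlier to be sought.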

How the results depend on the processing

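With 1 library per group, no library could be left out. No paired analysis was possible because each group had 1 library and the labels give no replicate numbers. Of the 32 member ratios, 32 kept their side of 3-fold with the filter at 100, with centring and with low values raised, and 29, 30, 28 and 30 did so with a floor of 50, pseudocounts of 20 and 100, and the length and GC correction. None was reversed, and centring changed the sign of 1 ratio within 3-fold. Under a floor or a pseudocount, the ratios that crossed 3-fold were those of *Igfbp4* in the cochlea and between HCs, of *Igf2* between HCs (1.58 with a floor of 50 and 0.93 with a pseudocount of 100) and of *Igf2r* in the vestibular system (-1.54 with a pseudocount of 100). The length and GC correction brought *Igfbp5* in the vestibular system to -1.55 and *Igf1* between ENSCs of the 2 organs to 1.52. The 3-fold lower signal of *Igf1* and *Igf2* in HCs of both organs was kept in all 7 of these settings. Apart from the threshold of 2, the counts given below are those that changed most, and counts left out changed less.

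With a floor of 50 (9.87% of all genes higher and 10.6% lower between vestibular HCs and ENSCs, 2.3% and 3.06% between HCs), 1 pathway gene was higher in vestibular HCs than ENSCs, 1 member and 2 pathway genes were higher and 0 members lower in cochlear than vestibular HCs, and the organ difference (vestibular minus cochlear HC to ENSC log2 ratio) became 1.60 for *Igf2* and -2.73 for *Igfbp4*, against at most 0.89 and at least -1.69 as deposited. With a pseudocount of 20 (10.2% and 10.1% of all genes between vestibular HCs and ENSCs, 2.29% and 3.09% between HCs, 5.12% and 5.32% between ENSCs), 1 pathway gene was higher in vestibular HCs than ENSCs, 2 pathway genes were higher and 0 members lower in cochlear than vestibular HCs, 5 pathway genes were lower in cochlear than vestibular ENSCs, and the organ difference was 0.11 for *Igf1*, 1.39 for *Igf2*, -4.11 for *Igfbp2* and -2.08 for *Igfbp4*. With a pseudocount of 100 (3.07% and 3.17% between cochlear HCs and ENSCs, 5.24% and 5.70% between vestibular ones, 0.897% and 1.27% between HCs, 2.33% and 2.82% between ENSCs), 1 pathway gene was higher and 12 lower in cochlear HCs than ENSCs, 1 higher and 8 lower in vestibular HCs than ENSCs, 1 member and 2 pathway genes higher and 0 members and 1 pathway gene lower in cochlear than vestibular HCs, and 3 pathway genes lower in cochlear than vestibular ENSCs. The organ difference was then 0.46 for *Igf1*, 2.04 for *Igf2*, -0.41 for *Igf1r*, -0.55 for *Igf2r*, -3.62 for *Igfbp2*, 0.84 for *Igfbp3* and -2.23 for *Igfbp4*.

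At a threshold of 2, 0 members were higher and 6 lower in cochlear HCs than ENSCs, and 8 pathway genes were higher and 28 lower. Of all genes 16.5% were then higher and 17.4% lower. In vestibular HCs 1 member was higher and 6 lower than in ENSCs, with 6 pathway genes higher and 30 lower. Of all genes 23.5% were higher and 24.5% lower there. Between cochlear and vestibular HCs 9 pathway genes were higher and 7 lower (10.5% of all genes each way). Between cochlear and vestibular ENSCs 14 pathway genes were higher and 20 lower (17.3% each way). With the length and GC correction (14.7% higher and 10% lower between vestibular HCs and ENSCs, 6.98% and 5.31% between ENSCs), 1 pathway gene was higher in vestibular HCs than ENSCs, and 1 member was higher and 4 pathway genes lower in cochlear than vestibular ENSCs. The organ difference was then -0.56 for *Igf1*, 1.76 for *Igf2*, 0.10 for *Igf1r*, -0.38 for *Igf2r*, -3.26 for *Igfbp2*, 1.24 for *Igfbp3*, -0.70 for *Igfbp4* and -0.20 for *Igfbp5*. The organ difference of *Igf1* and that of *Igf1r* thus changed sign between settings. That of *Igf2* was computed as above 0 in each setting, but its vestibular HC signal was in the range without order, so its sign is not established. The cause of these shifts was not tested. Depth is unknown, so the signals of *Igf2* in vestibular HCs and *Igfbp4* in cochlear HCs cannot be told from the lowest values of their libraries.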
